A study of Mus musculus with 15 samples.

Results

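Genes that encode cytokines of the IL-6 and IL-10 families, their receptors and associated regulatory cytokines were followed in group 2 innate lymphoid cells (ILC2s) of the mouse lung. The 10 genes were Il6, Lif, Osm, Ebi3, Il10, Il3, Tgfb1, Il6ra, Il6st and Il10ra, of 22180 genes with an array feature annotated to their symbol alone. All 10 members had such a feature, and for Ebi3, which had more than 1, the brightest feature on average was taken. A filter on dim features left 16257 genes for testing, among them 9 members, while Il10 fell below it. Il3 and Tgfb1 are not members of the families in the group's name: IL-3 belongs to the common beta chain cytokines, and TGF-beta1 to a superfamily of its own.

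Total RNA of lung ILC2s, lymphocytes without rearranged antigen receptors that make type 2 cytokines, was hybridised to 15 Affymetrix arrays in 5 groups of 3 biological replicates. Neonates were 10 days old and were not treated, and the labels give no sex for them. Effector adults, female and male, were given IL-33, an alarmin of epithelial cells to which ILC2s respond, through the nose on 3 days in a row, and their cells were taken 1 day after the last dose. Naive adults, female and male, were 8 weeks old and untreated. The sources used here do not give the strain, the age of the effector adults, the sorting markers, the number of mice per array or any batch, so a batch that follows the groups cannot be told apart from them. No group received the nasal dosing without IL-33, so the dosing and IL-33 cannot be told apart. All values are log2 levels as deposited, and 1 unit is a doubling of signal. Levels of different genes come from different probes and were not compared with each other.

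Cytokines of the IL-6 family signal through gp130, the shared receptor chain encoded by Il6st, which acts with a ligand-binding chain such as the IL-6 receptor alpha chain (Il6ra) for IL-6. Gp130 activates JAK kinases and mainly the transcription factor STAT3, and SOCS3, induced by STAT3, binds gp130 and dampens the signal. IL-10 also activates STAT3, through its own receptor chains encoded by Il10ra and Il10rb, and limits inflammation. Activated ILC2s are known as a source of IL-6, and in some settings of IL-10.

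The promoters of some ligands and of the shared receptor are shown first. Il6 rose and Il6st fell in effector adults, Lif was not called in any comparison, and Il3 stood apart in neonates. They are RefSeq sequences of mouse build GRCm38.p6 in the gene's own direction, 250 bases before to 50 after the start site. The Il6 window lies at chr5:30012864-30013163 (plus strand), Lif at chr11:4257318-4257617 (plus), Il6st at chr13:112463820-112464119 (plus) and Il3 at chr11:54267230-54267529 (minus). Capitals mark every match to 5 motifs searched on both strands: TTCNNNGAA (STAT), TGANTCA (AP-1), TGACGTCA (CRE), TTGCNNAA (C/EBP) and the NF-kB motif.
Il6: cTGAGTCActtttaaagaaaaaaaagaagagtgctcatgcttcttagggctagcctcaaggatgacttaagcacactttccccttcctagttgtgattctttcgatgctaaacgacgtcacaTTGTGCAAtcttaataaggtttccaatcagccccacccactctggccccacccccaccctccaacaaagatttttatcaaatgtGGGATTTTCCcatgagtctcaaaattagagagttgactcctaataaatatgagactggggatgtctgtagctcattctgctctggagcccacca
Lif: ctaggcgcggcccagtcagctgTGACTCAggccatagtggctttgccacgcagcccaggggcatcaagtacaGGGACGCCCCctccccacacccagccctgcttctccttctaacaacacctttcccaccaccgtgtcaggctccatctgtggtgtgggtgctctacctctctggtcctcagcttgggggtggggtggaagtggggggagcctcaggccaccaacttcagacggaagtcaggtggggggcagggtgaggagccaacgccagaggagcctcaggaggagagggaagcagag
Il6st: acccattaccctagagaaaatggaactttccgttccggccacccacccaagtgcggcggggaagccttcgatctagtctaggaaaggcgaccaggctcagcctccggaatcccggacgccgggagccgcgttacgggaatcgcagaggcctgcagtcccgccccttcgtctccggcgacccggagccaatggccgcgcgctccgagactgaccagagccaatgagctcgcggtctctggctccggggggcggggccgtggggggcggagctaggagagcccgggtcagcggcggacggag
Il3: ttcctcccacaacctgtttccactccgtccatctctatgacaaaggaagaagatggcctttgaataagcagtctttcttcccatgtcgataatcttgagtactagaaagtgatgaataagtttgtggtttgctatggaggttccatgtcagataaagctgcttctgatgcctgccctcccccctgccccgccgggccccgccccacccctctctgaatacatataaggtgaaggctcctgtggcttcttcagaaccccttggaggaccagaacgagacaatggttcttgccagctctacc

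The Il6 window held an AP-1 match (TGAGTCA) from base -249 to -243 of the start site, a C/EBP match (TTGTGCAA, read on the other strand) from -128 to -121 and an NF-kB match (GGGATTTTCC) from -44 to -35. The Lif window held an AP-1 match (TGACTCA) from -228 to -222 and an NF-kB match (GGGACGCCCC) from -178 to -169. No letters of the Il6st and Il3 windows matched. Of the windows not shown, that of Tgfb1 held an NF-kB match from -140 to -131. That of Ebi3 held NF-kB matches from -44 to -35 and from 14 to 23, and that of Il6ra held none of the motifs. The same search found the AP-1 motif in 7.81%, the NF-kB motif in 8.46%, the C/EBP motif in 10.8%, the STAT motif in 8.3% and the CRE in 1.79% of 32851 promoters of this length. These matches describe letters in these windows and were not tested for function. Promoters of 7 of the 10 members were in the RefSeq table used, and those of Il10, Osm and Il10ra are named only.

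The labelled cell type was checked by its markers. Of 13 ILC2 markers 11 had a feature of their own, all above the background range in every group, and their mean level per array was 9.30 to 9.68 in neonates, 9.36 to 9.74 in effector adults and 8.88 to 9.30 in naive adults. The background range of a group ends at the upper quartile of 1405 olfactory and vomeronasal receptor features, which lay at 3.71 in neonates, 3.35 in effector and 4.07 in naive adults. All 6 endothelial and all 6 epithelial markers were also above it in every group, so this alone does not set ILC2s apart. The mean level of these lists per array was at most 5.64 (endothelial, naive adults) and 5.80 (epithelial, neonates). Gata3, the transcription factor that defines ILC2s, had a mean level of 8.75 in neonates, 8.72 in effector and 8.83 in naive adults. The T cell gene Cd3g was also high, at 10.37 in neonates, 9.65 in effector and 10.22 in naive adults. A T cell transcript was thus measured in every group, but Cd3g does not stand for the T cell list. Cd3e averaged 7.39, 5.99 and 6.18 in these groups, Cd3d 5.05, 4.64 and 4.88, and Cd4 4.38, 4.22 and 4.45. The mean level of the T cell markers per array was 4.83 to 5.04 in effector and 5.06 to 5.25 in naive adults. In neonates it was at most 5.50. Array medians were 4.44 to 4.64. Neonatal arrays were the most variable for the 9 members tested, with a median SD of 0.44, against 0.17 to 0.31 in the adult groups. In bulk RNA, fewer cells of a type and less RNA per cell cannot be told apart.

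Effector adults differed from naive adults in 3 of the 9 members tested, beside 34.6% of all genes. Il6 and Osm rose, Il6st fell, and the other 6 did not pass the test. Among all genes 23.7% rose and 10.9% fell, so the share of members that moved was near the background. The median difference of the members was -0.03 and that of all genes 0.03. Neonates differed from naive adults in 3 of 9 members, beside 10.2% of all genes, with Il3 and Il6ra higher (6.04% of all genes) and Il6st lower (4.12%). Against effector adults they differed in 5 of 9, beside 20.6% of all genes, with Il3 and Il6ra higher (5.93% of all genes) and Il6, Osm and Ebi3 lower (14.7%). Each call is an adjusted p under 0.05 in a limma fit to all 15 arrays, with Benjamini-Hochberg adjustment over 16257 genes. The neonatal contrasts and the adult contrast share arrays, so their values are given side by side and not related to each other.

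**Figure D1:**
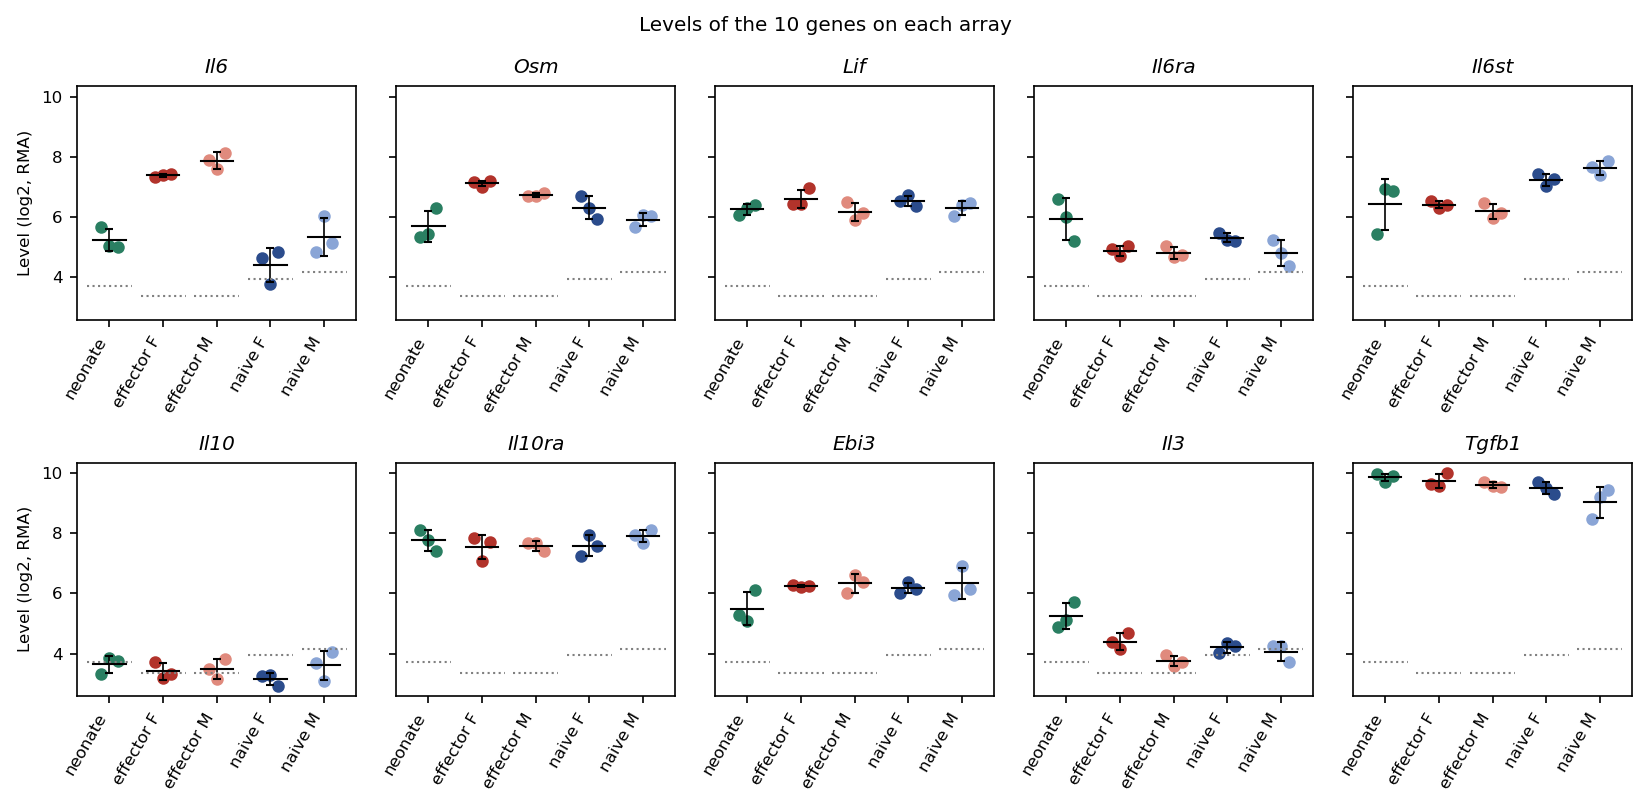
Log2 level of each member gene (vertical axes) by group (horizontal axes). Each point is 1 array, horizontal bars with whiskers are group means with their SD (n = 3), and dotted lines mark the end of each group's background range. Il6 in effector adults lies above all other arrays, Il6st in naive adults lies above all others, and Il10 stays at 2.94 to 4.04 in every group.

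Il6 encodes interleukin-6, the founding ligand of the family. The effector arrays read 7.32, 7.38 and 7.44 in females and 7.89, 7.58 and 8.14 in males. Naive arrays read 4.64, 3.76 and 4.83 in females and 4.84, 6.04 and 5.12 in males. The effector arrays lay close together and all above the highest naive array, a naive male, while the naive arrays were scattered. Il6 averaged 7.63 ± 0.32 in effector and 4.87 ± 0.74 in naive adults (SD, n = 6 each). It rose by 2.75 ± 0.22 on the log2 scale (SE), with a 95% confidence interval of 2.28 to 3.23, which is 6.75-fold (limma adjusted p = 2.44e-07). This is the 111th largest rise of 16257 genes. Groups of effector above naive arrays without overlap were found for 15.2% of all genes.

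The rise of Il6 was seen in both sexes. It was 2.97 ± 0.31 in females (limma adjusted p = 1.31e-05) and 2.54 ± 0.31 in males (limma adjusted p = 4.34e-05). The female response minus the male response was 0.43 ± 0.45, with a 95% interval of -0.52 to 1.38, and was not called (limma adjusted p = 0.982). In naive cells Il6 averaged 4.41 ± 0.57 in females and 5.33 ± 0.63 in males (SD, n = 3 each). These naive groups did not overlap, as for 3.01% of genes lower in females, and the difference of -0.92 ± 0.31 did not pass the test (limma adjusted p = 0.337).

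Neonatal Il6 was close to naive adult Il6 and far below effector Il6. The neonatal arrays read 5.67, 5.05 and 4.99, a mean of 5.24 ± 0.38 (SD, n = 3). They lay within the span of the naive adults and below every effector array, a separation found for 16.2% of genes in this direction. Il6 was lower in neonates than in effector adults by a log2 difference of -2.39 ± 0.27 (limma adjusted p = 3.88e-05), and the difference from naive adults was 0.37 ± 0.27 (limma adjusted p = 0.439). The order of the means was thus effector, neonate and naive, of which the last neighbours did not differ beyond their spread. The naive mean of 4.87 lay above the background range of all sensory receptor features, which ends at 4.07. It lay inside that of the 387 such features passing the filter, which ends at 5.22, an alternative chosen after seeing the data. The filter keeps brighter features, so the second range ends higher. How firmly Il6 can be called present in naive cells thus depends on the range used.

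Osm encodes oncostatin M, another gp130 ligand, made mainly by leukocytes. Effector arrays ran from 6.69 over a median of 6.91 to 7.18, and naive arrays from 5.66 over 6.04 to 6.70. The highest naive array, a female, was just above the lowest effector array, a male. Osm averaged 6.92 ± 0.22 in effector and 6.11 ± 0.35 in naive adults (SD, n = 6 each) and rose by 0.81 ± 0.17, or 1.76-fold (limma adjusted p = 0.00186). The difference was 0.81 ± 0.24 in females (limma adjusted p = 0.0363) and 0.82 ± 0.24 in males (limma adjusted p = 0.0227), and the female minus male response was -0.01 ± 0.34 (limma adjusted p = 0.998).

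With fewer arrays the Osm call in a single sex was often lost at a similar size. In females it was lost without naive female 2 (0.80) or 3 (0.62) or effector female 1 (0.79), 2 (0.86) or 3 (0.78), with limma adjusted p of 0.0779 to 0.151. In males it was lost without naive male 1 (0.69) or effector male 1 (0.84), 2 (0.84) or 3 (0.78), with limma adjusted p of 0.0517 to 0.0833, and after a further quantile normalization in females (0.69) and in males (0.67). Over both sexes the rise stayed called without each array in turn, at 0.72 to 0.91.

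Neonatal Osm had the lowest mean of the groups. The arrays read 5.34, 5.43 and 6.29, and the third lay above the naive median while the others lay below every naive array. The mean was 5.69 ± 0.53 (SD, n = 3). It was lower than in effector adults by a log2 difference of -1.24 ± 0.21 (limma adjusted p = 9.55e-04). The groups did not overlap, as for 16.2% of genes in this direction. Against naive adults the difference of -0.42 ± 0.21 did not pass (limma adjusted p = 0.225). Without neonate 3 it was -0.73 and passed (limma adjusted p = 0.0261).

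Lif encodes leukemia inhibitory factor, a gp130 ligand that uses the LIF receptor chain. Its level was 6.26 ± 0.18 in neonates (SD, n = 3), 6.39 ± 0.36 in effector and 6.42 ± 0.23 in naive adults (SD, n = 6 each). All 15 arrays lay between 5.91 and 6.96 and the groups overlapped throughout. The effector difference of -0.03 ± 0.15 did not pass (limma adjusted p = 0.898), nor did the neonatal differences of -0.16 ± 0.18 from naive (limma adjusted p = 0.624) and -0.13 ± 0.18 from effector adults (limma adjusted p = 0.636). The sign of the effector difference turned to 0.11 when each array was centred on its median.

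Ebi3 encodes a receptor-like subunit that pairs with p28 to form IL-27, a cytokine that signals through gp130. The neonatal arrays read 5.29, 5.09 and 6.12, against 6.01 over a median of 6.26 to 6.63 in effector and 5.94 over 6.16 to 6.90 in naive adults. The third neonatal array lay within both adult groups and the other neonates below them. Ebi3 was lower in neonates than in effector adults by -0.80 ± 0.24 on the log2 scale (limma adjusted p = 0.0285), and the difference from naive adults was -0.76 ± 0.24 (limma adjusted p = 0.0562). Effector and naive adults differed by 0.04 ± 0.20 (limma adjusted p = 0.901).

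The Ebi3 call against effector adults was close to the threshold. It was lost without effector female 2 (-0.80), effector male 2 (-0.72), effector male 3 (-0.79), neonate 1 (-0.69) or neonate 2 (-0.59), with limma adjusted p of 0.0506 to 0.158. It was also lost after a further quantile normalization (-0.70), with array weights (-0.74) and against female (-0.75) or male (-0.84) adults alone, so the size changed less than the call. Against naive adults it was called without naive male 1 (-0.86) or neonate 3 (-1.07). The other feature of Ebi3 read 3.14 to 4.76 and was below the filter.

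Il6st encodes gp130, the shared signalling chain. Effector arrays read 6.53, 6.30 and 6.39 in females and 6.46, 5.96 and 6.13 in males. Naive arrays read 7.42, 7.02 and 7.27 in females and 7.66, 7.38 and 7.86 in males. Every effector array lay below every naive array, a separation found for 4.93% of all genes in this direction. Il6st averaged 6.30 ± 0.22 in effector and 7.43 ± 0.30 in naive adults (SD, n = 6 each), a log2 difference of -1.14 ± 0.22 with a 95% interval of -1.60 to -0.67 (limma adjusted p = 8.72e-04). In the same arrays the ligand genes Il6 and Osm were higher.

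By sex, the Il6st difference was -0.83 ± 0.31 in females (limma adjusted p = 0.0891) and -1.45 ± 0.31 in males (limma adjusted p = 0.00307). Their difference was 0.62 ± 0.43, with a 95% interval of -0.30 to 1.54 (limma adjusted p = 0.977), so the sexes were not shown to differ. The female difference was called without neonate 1, whose spread enters the shared error (limma adjusted p = 0.00684).

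Neonatal Il6st was split between arrays. The first neonate read 5.45, below every other array, while the others read 6.93 and 6.87, between the effector and naive adults. The mean of 6.42 ± 0.84 (SD, n = 3) was below that of naive adults by a log2 difference of -1.02 ± 0.27 (limma adjusted p = 0.025), with no overlap, as for 4.10% of genes in this direction. Without neonate 1 the difference was -0.53 and was not called (limma adjusted p = 0.0986), and without naive female 1 it was -0.97 (limma adjusted p = 0.0504). Against effector adults it was 0.12 ± 0.27 (limma adjusted p = 0.789), and without neonate 1 it was 0.60 and called (limma adjusted p = 0.0363). The size of the neonatal difference, and whether neonates differ from effector adults, thus rest on neonate 1.

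Il6ra encodes the chain that binds IL-6. The neonatal arrays read 6.61, 6.01 and 5.20, against 4.66 over a median of 4.82 to 5.02 in effector and 4.36 over 5.22 to 5.48 in naive adults. All neonates lay above every effector array, and the first 2 above every naive array. Il6ra was higher in neonates than in effector adults by 1.10 ± 0.25 (limma adjusted p = 0.00705), with no overlap, as for 7.92% of genes in this direction. It was higher than in naive adults by 0.89 ± 0.25 on the log2 scale (limma adjusted p = 0.0383). The naive mean of 5.06 ± 0.40 (SD, n = 6) lies above the limit of 4.07 set by all sensory receptor features. It lies below the limit of 5.22 set by the filtered ones. That second call was lost without any of 11 of the 15 arrays, with limma adjusted p of 0.0503 to 0.195. The difference was 0.55 without neonate 1 and 0.77 to 0.93 without each of the other 10, and 4 of these are effector arrays that enter only the shared error. It stayed called without naive male 1, effector female 2, effector male 1 or neonate 3. Effector and naive adults differed by -0.22 ± 0.21 (limma adjusted p = 0.444).

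**Figure D2:**
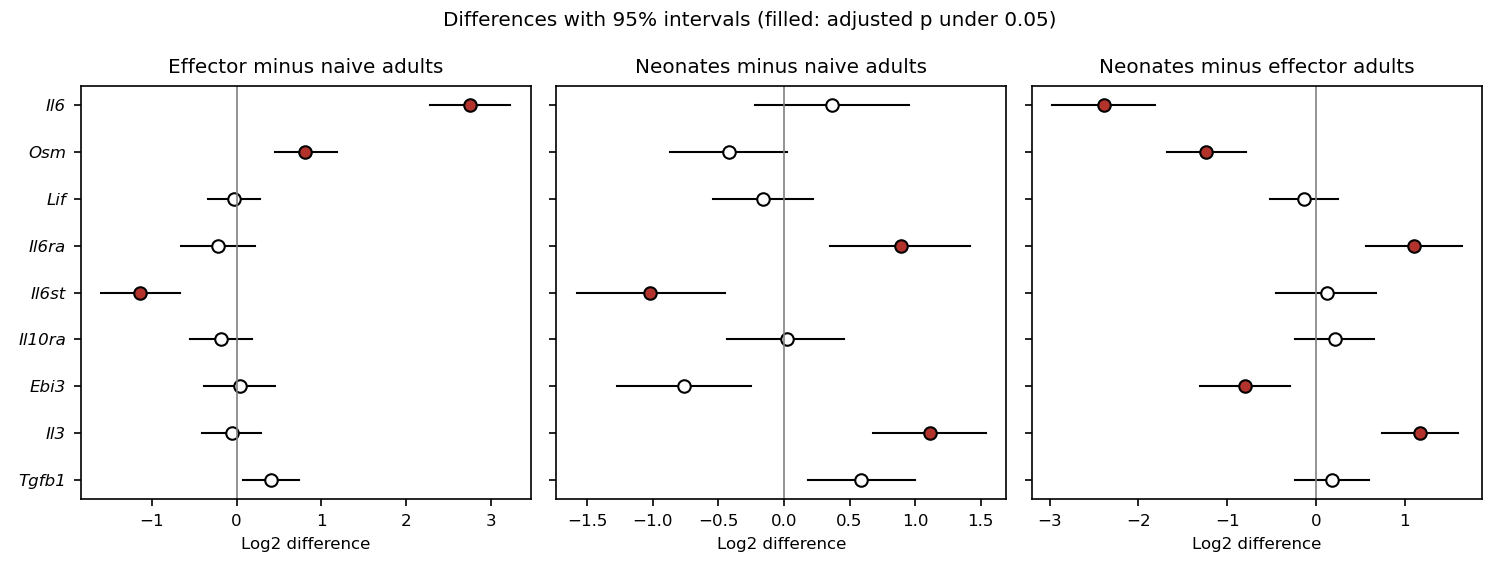
Log2 difference of each tested member (rows) for effector minus naive adults, neonates minus naive adults and neonates minus effector adults (panels). Points are limma estimates, bars are unadjusted 95% confidence intervals, filled points were called, and each panel has its own scale. Il6 shows the largest differences that involve effector adults, at 2.75 and -2.39, and the Il3 intervals lie above 0 in both neonatal panels.

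Il10, the founding cytokine of the other family, read in the dim range on all arrays. Its levels were 3.32, 3.85 and 3.77 in neonates, 3.16 to 3.82 in effector and 2.94 to 4.04 in naive adults, and no array reached its own percentile 40, at 4.01 to 4.25. The means were 3.65 ± 0.29 in neonates (SD, n = 3), 3.45 ± 0.28 in effector and 3.39 ± 0.41 in naive adults (SD, n = 6 each). The background range ends at 3.71, 3.35 and 4.07 in these groups, so only the effector mean lay above it. Against the same limit of each array, Il10 was above it on 1 neonatal, 3 effector and 1 naive array. In a fit without the filter the effector difference was 0.06 ± 0.18 (limma adjusted p = 0.834) and the neonatal difference from naive adults 0.26 ± 0.22 (limma adjusted p = 0.519). A change of Il10 was not detectable at this signal over background.

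Il10ra, which encodes the ligand-binding chain of the IL-10 receptor, was well above background. It averaged 7.77 ± 0.35 in neonates (SD, n = 3), 7.56 ± 0.28 in effector and 7.75 ± 0.31 in naive adults (SD, n = 6 each). All 15 arrays lay between 7.08 and 8.10 and the groups overlapped. No comparison called it, with differences of -0.19 ± 0.17 for effector against naive adults (limma adjusted p = 0.417), 0.02 ± 0.21 for neonates against naive adults (limma adjusted p = 0.97) and 0.21 ± 0.21 for neonates against effector adults (limma adjusted p = 0.52).

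Il3 encodes interleukin-3, a growth factor of mast cells, basophils and progenitors. The neonatal arrays read 4.88, 5.13 and 5.73, against 3.59 over a median of 4.04 to 4.69 in effector and 3.71 over 4.25 to 4.36 in naive adults. Every neonate lay above every adult. Neonates lay above naive adults without overlap for 6.88% of all genes, and above effector adults for 7.92%. The share above both was not computed. Il3 averaged 5.25 ± 0.44 in neonates (SD, n = 3) and was higher than in naive adults by 1.11 ± 0.20 on the log2 scale, with a 95% interval of 0.68 to 1.54 (limma adjusted p = 0.00274). Against effector adults the difference was 1.17 ± 0.20 (limma adjusted p = 0.00105). Both calls held without each array in turn, at 0.86 to 1.29 and 0.92 to 1.35.

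Adult Il3 was dim. It averaged 4.08 ± 0.41 in effector and 4.14 ± 0.24 in naive adults (SD, n = 6 each), and it was above the percentile 40 of its array on 10 of the 15 arrays. The adult groups differed by -0.06 ± 0.16 (limma adjusted p = 0.806), a sign that turned to 0.08 after centring each array and to 0.10 after a further quantile normalization. Both adult means lie above the background range of all sensory receptor features, which ends at 3.35 in effector and 4.07 in naive adults. Against the same limit of each array, Il3 was above it on 6 effector and 3 naive arrays. Naive males averaged 4.07 ± 0.31 (SD, n = 3), inside the range of all features, which ends at 4.17 there. The adult means lie inside the range of the 387 such features that passed the filter, which ends at 4.35 in effector and 5.22 in naive adults. The filter keeps brighter features, so that range ends higher. The neonatal difference is thus measured from a dim level, in naive adults near background, and no fold is given for it.

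Some mast cell and basophil markers were also higher in neonates. Of 7 such markers 5 were tested, and 3 were higher in neonates than in naive adults: Cpa3 by 2.43 ± 0.20, Mcpt8 by 1.80 ± 0.53 and Tpsb2 by 0.98 ± 0.19 (limma adjusted p = 3.03e-06, 0.0436 and 0.00473). Prss34, at 4.70 in neonates and 4.26 in naive adults, and Ms4a2, at 4.15 and 4.22, were not called. Among all genes 6.04% were higher and 4.12% lower in neonates than in naive adults. The mean level of the 7 markers per array was 4.77 to 5.53 in neonates, 4.08 to 4.75 in effector and 4.20 to 4.49 in naive adults. Fcer1a and Mcpt4, which define mast cells and, for Fcer1a, basophils, stayed in the background range in every group. Of 8 T cell markers tested 2 were higher in neonates than in naive adults, Cd3e by 1.21 ± 0.25 and Cd28 by 0.81 ± 0.22, and 0 were lower. Of 6 epithelial markers 1 was higher, Sftpc, with a mean of 7.51 ± 0.59 in neonates (SD, n = 3), 4.84 ± 0.44 in effector and 5.53 ± 0.99 in naive adults (SD, n = 6 each). The 3 fibroblast markers tested were all higher in neonates than in effector adults, by 0.43 to 0.71, beside 5.93% of all genes. Of these 1 stayed called with centred arrays, and none was called against naive adults. The B cell marker Ighm was lower than in naive adults by a difference of -0.91 ± 0.26. The part of such cells in the neonatal Il3, Il6ra and Il6st values was not tested.

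Tgfb1 encodes TGF-beta1, a regulatory cytokine stored in latent form. It averaged 9.86 ± 0.12 in neonates (SD, n = 3), 9.67 ± 0.17 in effector and 9.27 ± 0.43 in naive adults (SD, n = 6 each). Neonates at 9.96, 9.72 and 9.89 lay above every naive array, which ran from 8.46 over 9.36 to 9.70, and within the effector range of 9.53 to 10.00. A separation of neonates above naive adults was found for 6.88% of all genes. The neonatal difference from naive adults was 0.59 ± 0.19 (limma adjusted p = 0.0653) and the effector difference 0.40 ± 0.16 (limma adjusted p = 0.0589), and neither was called. Without naive male 3 both were called, at 0.69 (limma adjusted p = 0.0252) and 0.51 (limma adjusted p = 0.0181). Without naive male 1, the lowest array at 8.46, they shrank to 0.45 and 0.26 and were not called. With each array centred on its median the effector difference was 0.54 and called (limma adjusted p = 0.0146). Neonates and effector adults differed by 0.18 ± 0.19 (limma adjusted p = 0.533).

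The sexes were not shown to differ in any member. Females against males gave 0 calls among the 9 members in naive adults (limma), beside 0.209% of all genes, and 0 in effector adults, beside 0.0308%; 1 member had an unadjusted p under 0.05 in each. The effector response was called for 2 members in females, beside 14.0% of all genes, and for 3 in males, beside 24.9%. At 2-fold or more it was called for 1 member in females, Il6, beside 7.54% of all genes. The difference of the responses was called for 0 members and 0% of genes (limma), with an unadjusted p under 0.05 for 0 members and 866 genes.

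The receptor partners of the family were followed through 15 other gp130 family genes, of which 8 were tested. In effector adults 2 fell and 0 rose (median difference of the 8 tested -0.15), beside 10.9% and 23.7% of all genes. In neonates 1, Clcf1, was lower than in naive adults and 0 were higher (median 0.05), beside 4.12% and 6.04% of all genes. With centred arrays or with no filter the neonatal count was 0 lower and 1 higher. Clcf1 then lost its call and another gene gained one. The count thus has no settled direction, which does not mean that Clcf1 changed sign. Il27ra, the receptor chain that pairs with gp130 for IL-27, averaged 8.60 ± 0.31 in effector and 9.54 ± 0.10 in naive adults (SD, n = 6 each) and fell by 0.94 on the log2 scale (limma adjusted p = 2.15e-04). Clcf1, a gp130 ligand of the ciliary neurotrophic factor group, fell by 0.90 in effector adults (limma adjusted p = 1.60e-04), with a mean of 5.54 in effector and 6.44 in naive adults. The LIF receptor gene Lifr was below the filter, and Osmr, the oncostatin M receptor chain, was dim at 4.38 ± 0.26 in neonates (SD, n = 3), 3.96 ± 0.24 in effector and 4.10 ± 0.15 in naive adults (SD, n = 6 each).

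Of 12 other IL-10 family genes 7 were tested, and none was called in effector or in neonatal against naive adults (limma; medians -0.15 and 0.01). Against effector adults 2 were higher in neonates, beside 5.93% of all genes: Ifnlr1 by 0.51 ± 0.14 and Ifnl2 by 0.48 ± 0.16. These are genes of the type III interferon receptor and of a type III interferon. With no filter all 12 were tested, with 4 higher in neonates than in effector adults and 1 higher in effector than in naive adults. Among all 22180 genes 1557 and 3690 were higher in these comparisons with no filter. Il10rb, the shared chain of the IL-10 receptor, was well expressed at 8.00 ± 0.19 in neonates (SD, n = 3), 8.41 ± 0.12 in effector and 8.56 ± 0.35 in naive adults (SD, n = 6 each). Its neonatal difference from naive adults was -0.56 ± 0.17 (limma adjusted p = 0.0534). Both chains of the IL-10 receptor were thus measured well above background in every group.

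Of 14 genes of the JAK-STAT pathway below these receptors 13 were tested, and 6 rose and 2 fell in effector adults (median 0.29), beside 23.7% and 10.9% of all genes. Socs3, the feedback inhibitor that binds gp130, rose by 1.43 ± 0.17 (limma adjusted p = 1.47e-05), with a mean of 6.38 ± 0.34 in effector and 4.95 ± 0.28 in naive adults (SD, n = 6 each). Bcl3, an atypical NF-kB regulator, rose by 1.20 ± 0.14, Ptpn11, the phosphatase SHP2 recruited by gp130, by 1.13 ± 0.19, and Stat3 by 0.60 ± 0.12. In neonates 2 were higher and 1 lower than in naive adults (median 0.27), beside 6.04% and 4.12% of all genes. Stat3 was higher by 0.81 ± 0.15 and Jak2, a kinase of cytokine receptors, by 0.80 ± 0.18, while the inhibitor Socs1 was lower by a difference of -0.80 ± 0.16. Socs3 averaged 5.13 ± 0.47 in neonates (SD, n = 3), below effector adults by a difference of -1.26 ± 0.21 (limma adjusted p = 8.42e-04).

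Of 7 genes of the common beta chain family 6 were tested, and 2 rose in effector adults and 2 in neonates, each against naive adults (medians 0.06 and 0.58), beside 23.7% and 6.04% of all genes. Il3ra, the receptor chain for IL-3, rose by 0.85 ± 0.17 in effector adults (limma adjusted p = 0.00114) and was lower in neonates than in effector adults by a difference of -0.81 ± 0.21. Il5, the eosinophil growth factor, was higher by 1.95 ± 0.26 in neonates and by 1.46 ± 0.21 in effector adults. Csf2, the gene of GM-CSF, was higher in neonates by 1.12 ± 0.15 (limma adjusted p = 2.47e-04). Csf2rb, the shared signalling chain, was dim at 4.11 ± 0.79 in neonates (SD, n = 3), 4.17 ± 0.14 in effector and 4.41 ± 0.41 in naive adults (SD, n = 6 each).

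All 18 genes chosen for TGF-beta production, activation and signalling were tested. In effector adults 5 rose and 3 fell (median -0.13), and in neonates 5 were higher than in naive adults (median 0.17), beside 23.7% and 10.9% of all genes in effector adults and 6.04% in neonates. Tgfb3, a close relative of Tgfb1, rose by 2.17 ± 0.19 in effector adults (limma adjusted p = 4.83e-07), with means of 7.18 ± 0.44 in effector and 5.01 ± 0.36 in naive adults (SD, n = 6 each). Furin, the protease that cleaves the TGF-beta precursor, was higher by 1.27 ± 0.21 in neonates and 1.21 ± 0.17 in effector adults, and Itgav, an integrin chain that activates latent TGF-beta, by 1.38 ± 0.29 in neonates and 0.89 ± 0.24 in effector adults. Tgfb3 was lower in neonates than in effector adults by a difference of -1.71 ± 0.23.

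All 9 genes chosen as regulators of Il10 in lymphocytes were tested, and 5 rose in effector adults and 5 were higher in neonates, each against naive adults (medians 0.94 and 0.73), beside 23.7% and 6.04% of all genes. Irf4 was higher by 2.66 ± 0.29 in neonates and by 3.69 ± 0.24 in effector adults, and Ahr by 1.44 ± 0.19 in neonates and by 1.35 ± 0.15 in effector adults. Batf, a partner of IRF4, rose by 2.00 ± 0.14 in effector adults, and Prdm1, the gene of Blimp-1, by 1.04 ± 0.18. Il10 itself stayed dim in the same arrays.

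**Figure D3:**
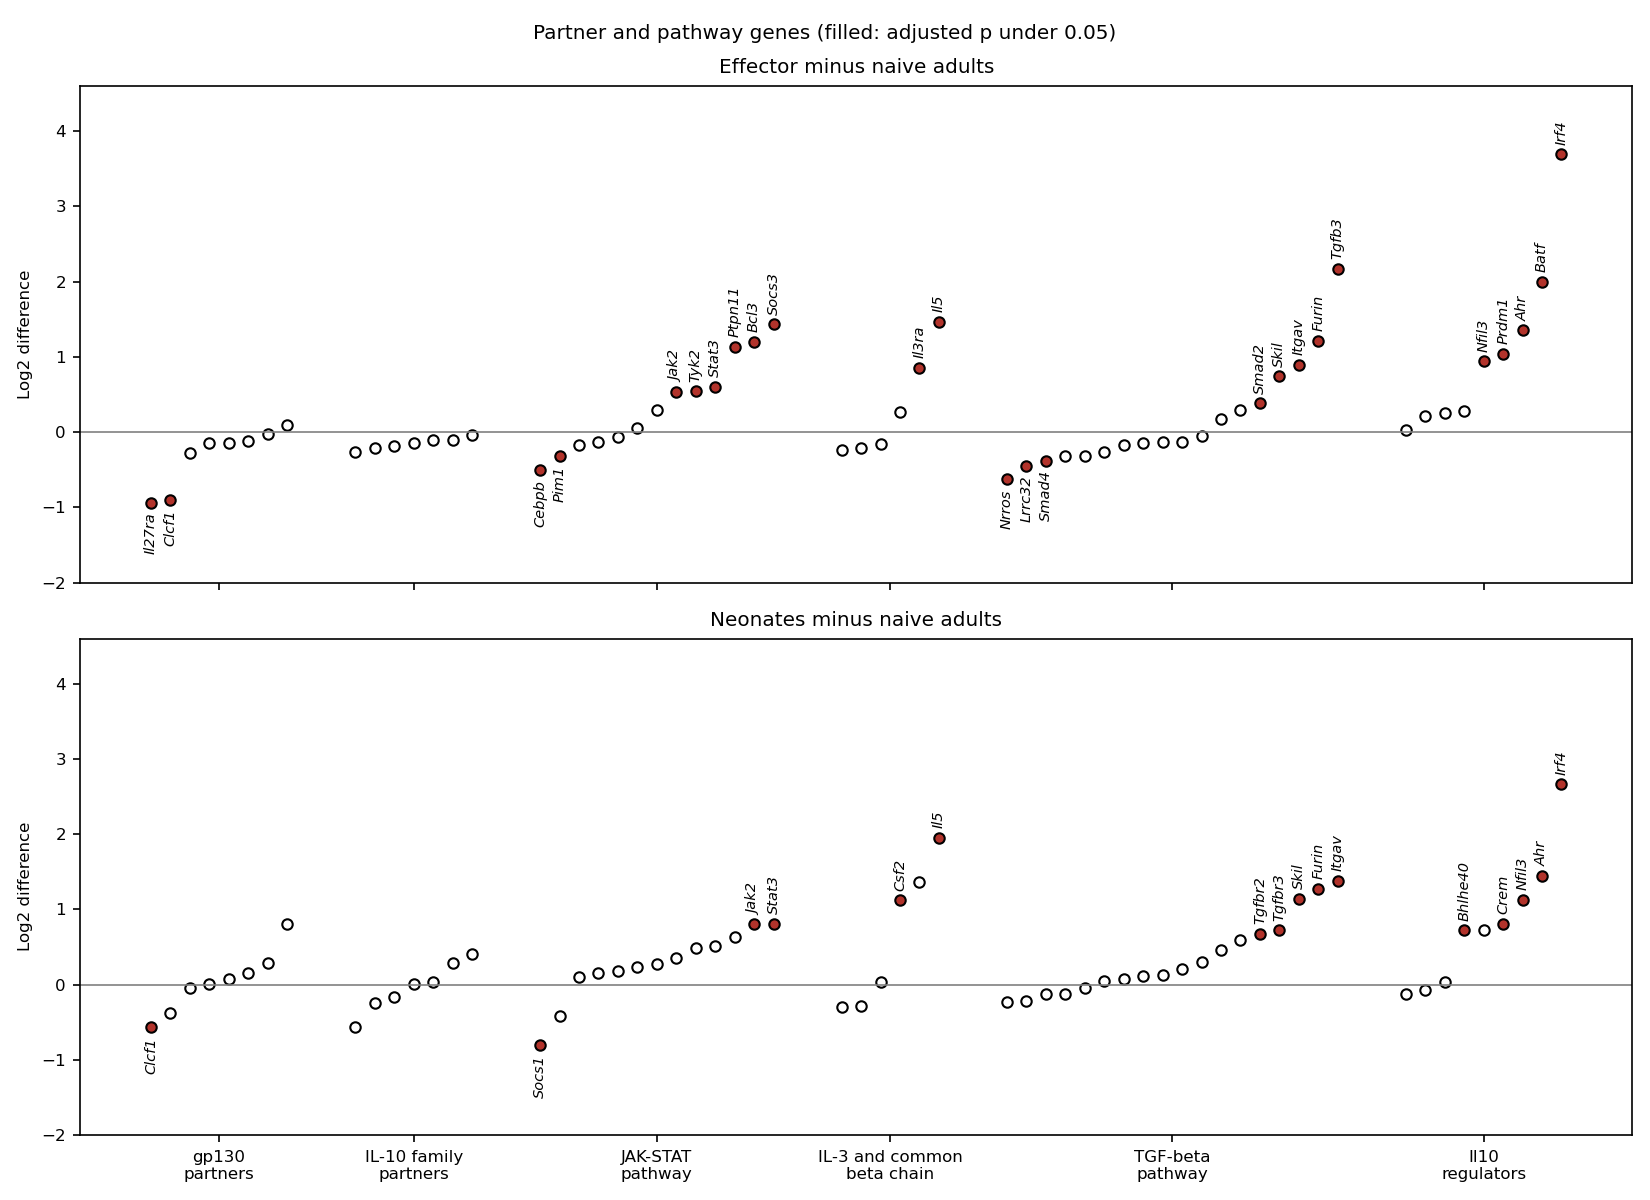
Log2 difference (vertical axis) of each tested partner and pathway gene, grouped by list (horizontal axis), for effector minus naive adults (upper) and neonates minus naive adults (lower). Filled points were called and carry their gene name. Irf4 is the highest point in both panels, at 3.69 and 2.66, and no gene among the IL-10 family partners is filled.

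With arrays centred on their medians, an alternative extended to the lists after seeing the data, counts shifted towards rises in effector adults: 7 and 1 instead of 6 and 2 for the JAK-STAT genes, 6 and 1 instead of 5 and 3 for the TGF-beta genes, and 8 and 0 instead of 5 and 0 for the Il10 regulators. All genes shifted the same way, with 5015 rises and 1024 falls of 16257 instead of 3855 and 1773. In neonates against naive adults, centring gave 6 rises for the TGF-beta genes and 6 for the Il10 regulators, instead of 5 each. Among all genes it gave 1050 rises there instead of 982.

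Markers of other cells also differed between effector and naive adults, where 23.7% of all genes rose and 10.9% fell. Of 6 endothelial markers tested, Ptprb, Cldn5 and Tek were lower by differences of -1.24 ± 0.21, -1.06 ± 0.18 and -0.66 ± 0.20, while Pecam1 averaged 7.89 ± 0.12 in effector and 7.43 ± 0.53 in naive adults (SD, n = 6 each) and was not called. With centred arrays 1 was higher and 2 were lower. The endothelial mean level per array was 4.56 to 4.93 in effector and 4.67 to 5.64 in naive adults. Macrophage and dendritic cell markers averaged 4.22 to 4.29 in effector and 4.19 to 4.85 in naive arrays, with Cd68 higher by 0.63 ± 0.17 and Adgre1 and Mrc1 lower, and with centred arrays 1 was higher and 0 lower. Of 3 B cell markers tested, Ighm was lower by a difference of -2.19 ± 0.21 (limma adjusted p = 1.54e-06) and Cd79b higher by 1.00 ± 0.24. Of 8 T cell markers tested, Cd3g and Cd8b1 were lower, by differences of -0.58 ± 0.14 and -0.56 ± 0.18, and with centred arrays 1 was lower and 0 were higher. Of 4 NK cell and ILC1 markers tested, Klrb1c was lower by a difference of -0.63 ± 0.21, and with centred arrays 1 was higher and 0 were lower. Tbx21 of that list averaged 5.41 in effector and 5.01 in naive adults and was not called. Several of these markers were dim. Tek averaged 3.45 in effector and 4.11 in naive adults, Cd8b1 3.53 and 4.09, and Klrb1c 3.79 and 4.43. Adgre1 averaged 3.97 and 4.45, and Mrc1 3.94 and 4.51. The background range ends at 3.35 in effector and 4.07 in naive adults, so this limit is itself lower in effector adults. Gp130 is expressed in many cell types, and the part of other cells in the Il6, Osm and Il6st differences was not tested.

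For each tested member the genes with the most similar pattern over the 15 arrays are given as a description, since arrays of a group share their treatment. Il6 was closest to Aunip (r = 0.96), Mfsd2a (0.95) and Uchl1 (0.94), and Osm to Tuba1a (0.95), Irf7 (0.94) and H2-T23 (0.93). Il6st was closest to Rarg (0.93), Zfp318 (0.91) and Zfp579 (0.91). Il3 was closest to Ptger3 (0.88), Col4a2 (0.88) and Inhbe (0.87), and Il6ra to Zfp667 (0.90), Acod1 (0.90) and Rpl17-ps9 (0.89). After each group's mean was taken off, r to the nearest gene was 0.57 for Il6, 0.74 for Osm, 0.89 for Il6st, 0.83 for Il3 and 0.85 for Il6ra.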

How the data were processed

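The values analysed are the log2 expression levels the authors deposited, made with Affymetrix Expression Console and RMA per the submitters' processing notes. RMA corrects background, normalizes quantiles and summarises probes on the log2 scale, which compresses differences of dim genes. The sources used here give no versions, and raw intensities were not used. Of 41345 features, 23521 had exactly 1 symbol. Genes above their array's percentile 40 in at least 3 arrays were kept, with the feature of highest mean. Group means of 5 groups were fitted with limma 3.58.1 (R 4.3.3) and moderated variances, and tests were two-sided. Of the 8 comparisons, those that pool adults of both sexes weighted the sexes equally. The procedure was tested on simulated data. Errors of differences are moderated standard errors. The number of arrays limits the precision, and p-values measure the spread between biological replicates as labelled.

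Named genes were the 10 members, up to 4 called genes with the largest difference per pathway list (up to 2 where none was called), the 3 most similar genes per member and ILC2 markers. Osmr, Il10rb, Csf2rb and the marker genes of other cell types were named with their values known. The members and lists were chosen with earlier results of these data known. Same-numbered replicates did not deviate together (r from -0.11 to 0.10 over 30 pairs), so numbers do not pair arrays. Alternatives covered filter, scaling, normalization, prior, weights, replicate block, arrays in the fit, feature choice, threshold, each array left out and adults of each sex alone. Figures used matplotlib 3.10.9.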

Additional observations from a re-analysis of the deposited data

How the results depend on the processing

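Of 858 recomputed member differences, 774 kept direction and side of the threshold, 44 lost the call, 16 gained it and 24 changed sign. The effector against naive count of 3 members stayed 3 to 4 without each array, that of females was 1 to 3, of males 2 to 4, of neonates against naive adults 1 to 5 and against effector adults 4 to 5. In females 1 member, Il6, was called after a further quantile normalization, with a replicate block (where Osm had limma adjusted p = 0.0511) or at 2-fold. The block moved no other member call. Quantile normalization also ended the male Osm call (0.67, limma adjusted p = 0.0739) and, like array weights and adults of each sex alone, the Ebi3 call of neonates against effector adults. Neonates against naive adults gave 1 with only the arrays compared or against female adults alone. The cause was not tested.

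Signs turned only for members that were not called. Effector minus naive Il3 was 0.08 with centred arrays, 0.10 after quantile normalization and -0.15 to 0.01 without each array, Lif 0.11 centred and -0.12 to 0.04, and Ebi3 -0.10 after quantile normalization and -0.06 to 0.18. Neonatal minus naive Il6 was -0.10 against male adults alone, and Il10ra -0.02 after quantile normalization, -0.14 against male adults and -0.15 to 0.20 without each array. Neonatal minus effector Lif was 0.07 after quantile normalization and 0.08 against male adults, and Il6st -0.14 to 0.60. Il3 was not tested with the filter at percentile 60. Il6ra against naive adults was 0.86 and not called with array weights.

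All genes called at 2-fold were 1555 instead of 5628 for effector against naive adults, 1226 instead of 2276 in females, 1981 instead of 4048 in males, 632 instead of 1652 for neonates against naive and 1081 instead of 3346 against effector adults. Array weights gave 3745 in females, 705 and 2068 for the neonatal comparisons, and 11 instead of 5 and 19 instead of 34 for the sexes in effector and naive cells, where only the arrays compared gave 8 each. Neonates against naive adults gave 676 with only the arrays compared and 935 against females alone, and against effector females alone 1942. The difference of responses gave 1 instead of 0 with centring, weights, block or the percentile 60 filter. Leaving out arrays gave 1361 to 2527 in females, 2603 to 4391 in males, 1027 to 1849 and 2067 to 3758 for the neonatal comparisons, 0 to 7 for the responses and 16 to 84 for naive sexes. Centring moved the median of all genes in effector against naive adults from 0.03 to 0.17 and the share of calls that were rises from 68.5% to 83.0%, and in neonates against effector adults from 28.8% to 16.4%. In effector against naive adults, Il3, Lif and Ebi3 have no settled direction under these alternatives.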
